A study of Mus musculus with 4 samples.

Results

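The genes Ccl2, Ccl7, Ccl8 and Ccl12, which encode the monocyte-attracting chemokines of the Ccl2 family, and Ccr2, which encodes the receptor that most of them share, were followed through the CD45+ cells of EO771 mammary tumors. These 5 of the 32285 genes counted were chosen by their UMI levels across cell types in the same cells, so those levels are given as a description without a test. EO771 is a mouse mammary carcinoma cell line, and its cells had been placed in the mammary fat pad of female Csf1rfl/fl mice and of female Lyve1CreCsf1rfl/fl mice. Both genotypes carry the floxed alleles of Csf1r, the receptor for macrophage colony-stimulating factor. Only the second carries Cre, which is driven from Lyve1, a gene of lymphatic endothelium and of a subset of tissue macrophages, so recombination is not limited to macrophages. Viable CD45+ cells were sorted from tumors of 1.5 cm3, with 2 tumors per genotype, and each of 2 Chromium runs held 1 tumor of each genotype under its own hashtag antibody. The labels give the sex and the tumor volume but no age.

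Chemokines of this family bind CCR2 on monocytes that carry Ly6C and draw them out of the bone marrow and into inflamed or malignant tissue, where many become macrophages. CCL2 is the best-known ligand, CCL7 also engages CCR1 and CCR3, and CCL12 is a rodent member with no direct human counterpart. Mouse CCL8 acts mainly through CCR8 on T cells. In mammary tumors the axis is known for feeding the pool of tumor-associated macrophages.

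The ligand genes lie side by side on the plus strand of chromosome 11. In mm10 (GENCODE vM21), Ccl2 is at chr11:82035571-82037453, Ccl7 at chr11:82045712-82047525, Ccl12 at chr11:82101845-82103400 and Ccl8 at chr11:82115185-82116799, a cluster of 81.2 kb that also holds Ccl11 between Ccl7 and Ccl12. Ccr2 is at chr9:124101950-124113557. Coding sequences of Ccl7, Ccl8 and Ccl12 were 64.6% to 66.7% identical to each other. No stretch of 60 bases in a transcript of a ligand gene was found in a transcript of another gene, against 102 of 6749 stretches in transcripts of Ccr2, so counts of the ligands rest on sequence of their own. Promoters of Ccl8 and Ccl12 are shown because these are the ligand genes with an entry in the RefSeq table used. The RefSeq table for GRCm38.p6 gave the 250 bases before the start of Ccl12 (chr11:82101595-82101844, plus strand) and of Ccl8 (chr11:82114935-82115184, plus strand), with capitals marking the only motif found.
Ccl12: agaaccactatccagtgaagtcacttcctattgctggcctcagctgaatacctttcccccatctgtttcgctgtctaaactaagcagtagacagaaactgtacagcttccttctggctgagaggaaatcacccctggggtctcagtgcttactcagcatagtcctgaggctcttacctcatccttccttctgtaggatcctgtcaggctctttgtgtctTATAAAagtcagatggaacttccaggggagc
Ccl8: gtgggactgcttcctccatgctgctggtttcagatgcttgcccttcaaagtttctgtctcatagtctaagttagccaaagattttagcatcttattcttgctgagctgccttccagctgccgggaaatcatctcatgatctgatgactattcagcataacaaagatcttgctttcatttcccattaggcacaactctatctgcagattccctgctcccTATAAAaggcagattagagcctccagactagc
Each holds 1 TATA box, TATAAA, at position -31 in Ccl12 and at -32 in Ccl8, counted from the start. Over 32851 promoter windows of 300 bases, 13.6% held this motif on either strand. Windows of Ccl8, Ccl12 and Ccr2 held no match on either strand to an NF-kB-like motif (in 1.63% of windows), an AP-1 site (TGANTCA, 7.81%), a GAS element (TTCNNNGAA, 8.3%), an ISRE core (3.44%) or a PU.1-like site (GAGGAAGT, 3.2%), and that of Ccr2 held no TATA box. The first 250 bases of the Ccr2 window, chr9:124101933-124102182, lie mostly inside the gene as placed above, so that window belongs to a later start. Aligned end to end, both printed stretches were 57.5% identical.

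Of 53361 barcodes, 28429 belonged to the cells that the authors had kept, with 8699 (run 1) and 7786 (run 2) cells in Csf1rfl/fl tumors against 7173 and 4771 in Lyve1CreCsf1rfl/fl tumors. Total UMIs per tumor lay between 27686362 and 56715743. Each cell was given a type from marker UMIs, none of them a member, and 16 types had at least 30 cells in every tumor. Of 35 markers that the gates did not use, 33 were highest in their own type. The other two were Clec10a, which was highest in plasmacytoid dendritic cells (pDC) and not in MHC class II-high dendritic cells (DC), and Spp1, which was highest in NK cells and not in Arg1 macrophages. Cells that passed the gates of more than one lineage made up 14.7% and were left out of the types, and 6.53% passed no gate. The Csf1rfl/fl tumor of run 1 stood apart, with 21.2% of such mixed cells against 9.93% to 15% in the others and with 6.82% of cells whose hashtags differed by less than 3 times against 0.218% to 1.41%. It also had the highest Ccl2, Ccl7 and Ccl12 levels in most types, so values without it stand beside the main genotype differences of the ligands. Among kept cells, 60 barcodes occurred in both runs. Gates are cuts on a continuous level, and of 6666 cells considered 701 lay within 0.8 to 1.25 times the Ly6c2 cut and 117 within the same bounds of the C1q cut. Csf1r, the floxed gene, measured 1.91 and 2.38 UMIs per 10000 in C1q macrophages of the Csf1rfl/fl tumors and 1.48 and 1.62 in those of the Lyve1CreCsf1rfl/fl tumors, and reads from the 3' end of its RNA cannot tell the floxed allele from the recombined one. Lyve1 itself had 20 to 43 UMIs per tumor.

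Over all kept cells of each tumor, the ligands were lower in both Lyve1CreCsf1rfl/fl tumors than in both Csf1rfl/fl tumors. Ccl2 measured 5.3 (run 1) and 2.54 (run 2) UMIs per 10000 UMIs in Csf1rfl/fl tumors, against 1.63 and 1.33 in Lyve1CreCsf1rfl/fl tumors. Ccl7 measured 2.57 and 1.19 against 0.446 and 0.538, and Ccl12 measured 3.81 and 2.1 against 0.844 and 0.845. The genotypes did not overlap for any of these ligands, nor for Ccl8, at 0.389 and 0.213 against 0.0688 and 0.121. Of 12061 genes with at least 200 UMIs, 8.13% were likewise lower in both Lyve1CreCsf1rfl/fl tumors than in both Csf1rfl/fl tumors. Ccr2 did not follow them. It measured 1.33 and 2.63 in the Csf1rfl/fl tumors and 1.39 and 2.06 in the Lyve1CreCsf1rfl/fl tumors, higher in run 2 in both genotypes, and the genotypes overlapped. In such whole-tumor sums, fewer cells of a type and less RNA per cell cannot be told apart, and C1q macrophages made up 6.56% and 5.15% of cells in the Csf1rfl/fl tumors and 2.73% and 2.35% in the Lyve1CreCsf1rfl/fl tumors.

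Within single types the ligands were led by phagocytes. C1q macrophages were gated on the complement genes C1qa, C1qb and C1qc. This gate took precedence over the Ly6c2, MHC class II and Arg1 gates, so cells that also passed any of these could fall in the class. In C1q macrophages Ccl2 measured 16.7 (run 1) and 10.8 (run 2) UMIs per 10000 in Csf1rfl/fl tumors, against 9.3 and 9.28 in Lyve1CreCsf1rfl/fl tumors. It measured 18.3, 6.45, 6.33 and 5.65 in the same order in other phagocytes, which carry Lyz2, Csf1r or other genes of mononuclear phagocytes but passed no narrower gate, and 12, 7.25, 3.54 and 4.34 in Arg1 macrophages. Ly6c2 monocytes followed with 10.2, 5.15, 4.62 and 3.25. In every tumor C1q macrophages were above Arg1 macrophages and Ly6c2 monocytes. Other phagocytes were above C1q macrophages in the Csf1rfl/fl tumor of run 1 only, where 1 of them held 175 of 1312 Ccl2 UMIs. As a mean over cells, other phagocytes of that tumor were below C1q macrophages, at 12.7 against 15.5 UMIs per 10000. Taken over tumors the ranges of these 4 classes overlapped, and in each of them the Csf1rfl/fl tumor of run 1 was highest. With a Ccl2 UMI in 75.3% (exact 95% interval 71.6% to 78.8%) and 65.1% (60.2% to 69.8%) of C1q macrophages of the Csf1rfl/fl tumors, and in 55.6% (48.4% to 62.7%) and 59.8% (50.1% to 69%) of those of the Lyve1CreCsf1rfl/fl tumors, the gene was found in most cells of this class. These intervals cover counting error only. CD8 T cells, which should lack it, had a Ccl2 UMI in 4.06% to 8.17% of cells at a median of 4725 UMIs per cell against 5222.5 in C1q macrophages. When cells were thinned to 1500 UMIs and shallower ones left out (551 and 394 C1q macrophages stayed in the Csf1rfl/fl tumors, 187 and 110 in the Lyve1CreCsf1rfl/fl tumors), the shares in C1q macrophages were 39.6% to 61.2% and those in CD8 T cells 0.896% to 3.22%.

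**Figure D1:**
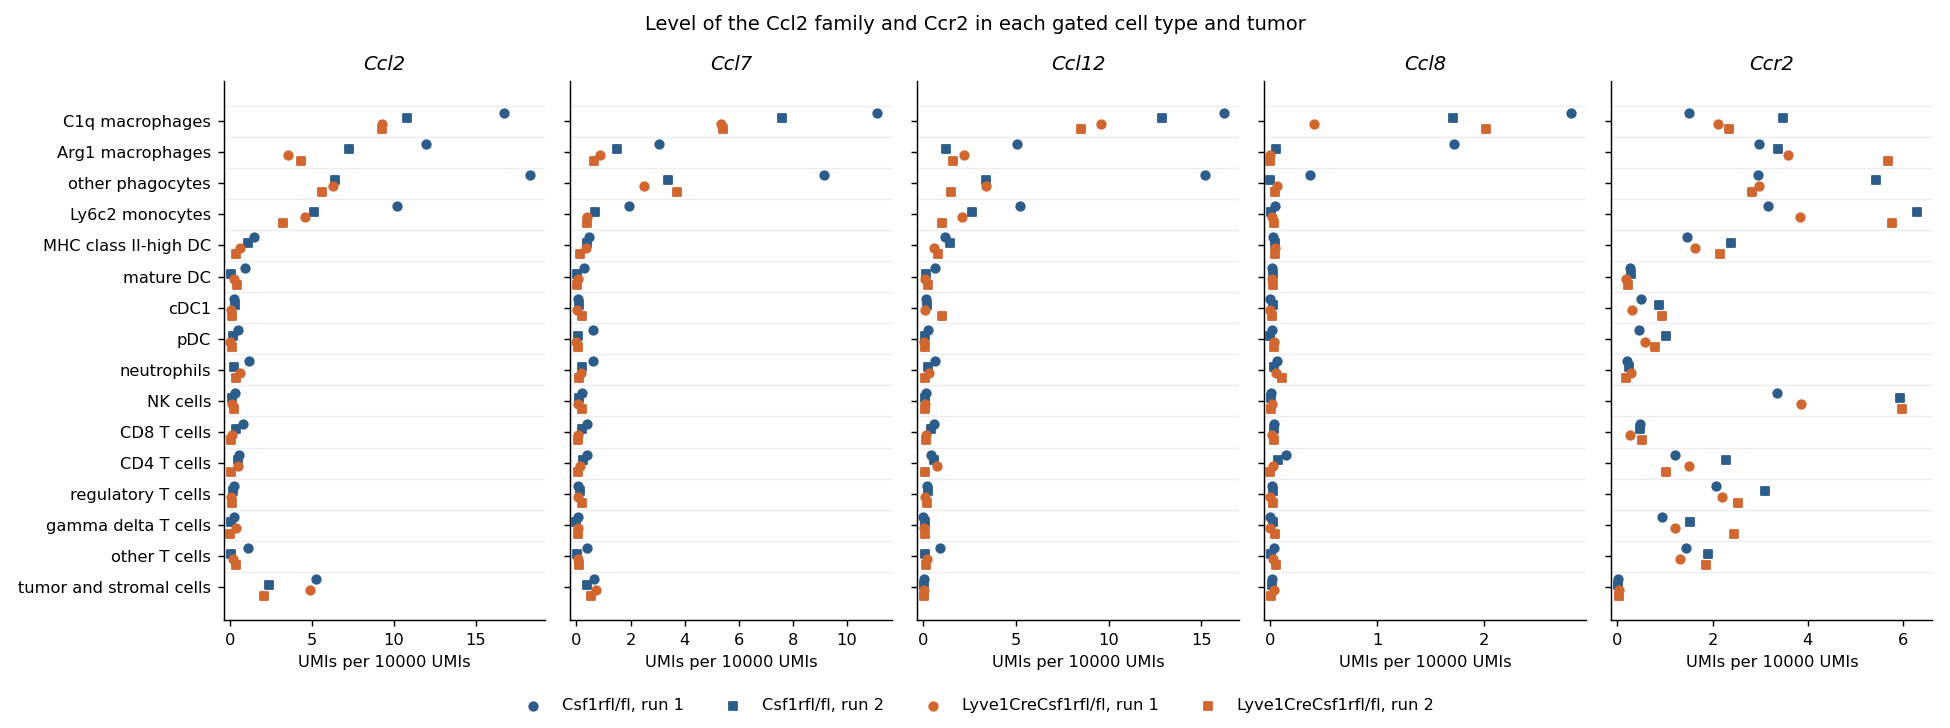
Each panel plots 1 gene, with UMIs per 10000 UMIs of a gated cell type on the horizontal axis and 16 cell types on the vertical axis; each point is 1 tumor, blue for Csf1rfl/fl and orange for Lyve1CreCsf1rfl/fl, circles for run 1 and squares for run 2. Ligand points above 2 lie in the phagocyte classes, Ly6c2 monocytes and, for Ccl2, tumor and stromal cells, while Ccr2 reaches 6.3 in Ly6c2 monocytes and 5.97 in NK cells.

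Ccl7 and Ccl12 were more uneven over these classes than Ccl2. In C1q macrophages Ccl7 measured 11.1, 7.61, 5.33 and 5.43 UMIs per 10000 in the 4 tumors (in the order given for Ccl2), and in Ly6c2 monocytes 1.94, 0.691, 0.383 and 0.396. Ccl12 measured 16.2, 12.9, 9.59 and 8.5 in C1q macrophages and 5.19, 2.61, 2.07 and 1.03 in Ly6c2 monocytes. In every tumor both ligands were thus higher in C1q macrophages than in monocytes, with no overlap between these classes. Set against Ccl2, there were 0.573 to 0.703 Ccl7 UMIs per Ccl2 UMI in C1q macrophages and 0.0827 to 0.19 in monocytes. For Ccl12 this ratio was 0.916 to 1.19 in C1q macrophages and 0.318 to 0.509 in monocytes. The step between both classes was larger than the spread over tumors in either ratio.

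Few tumor and stromal cells (222 in all), gated on collagen, Sparc and keratin genes, had passed the CD45 sort, and they held Ccl2 almost without Ccl12. Their Ccl2 measured 5.26 and 2.42 UMIs per 10000 in the Csf1rfl/fl tumors and 4.91 and 2.09 in the Lyve1CreCsf1rfl/fl tumors, higher in run 1 in both genotypes, while their Ccl12 was 0.0193 to 0.0403. Ccl12 UMIs per Ccl2 UMI came to 0.00367 to 0.0193 there, under the ratio in C1q macrophages in every tumor. These cells were deep, at a median of 48334 UMIs, and they held 7.25% and 4.35% of all Ccl2 UMIs of the Csf1rfl/fl tumors and 24.2% and 14.1% of those of the Lyve1CreCsf1rfl/fl tumors. A share of this size says nothing of such cells in the whole tumor, since the sort removed most of them.

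**Figure D2:**
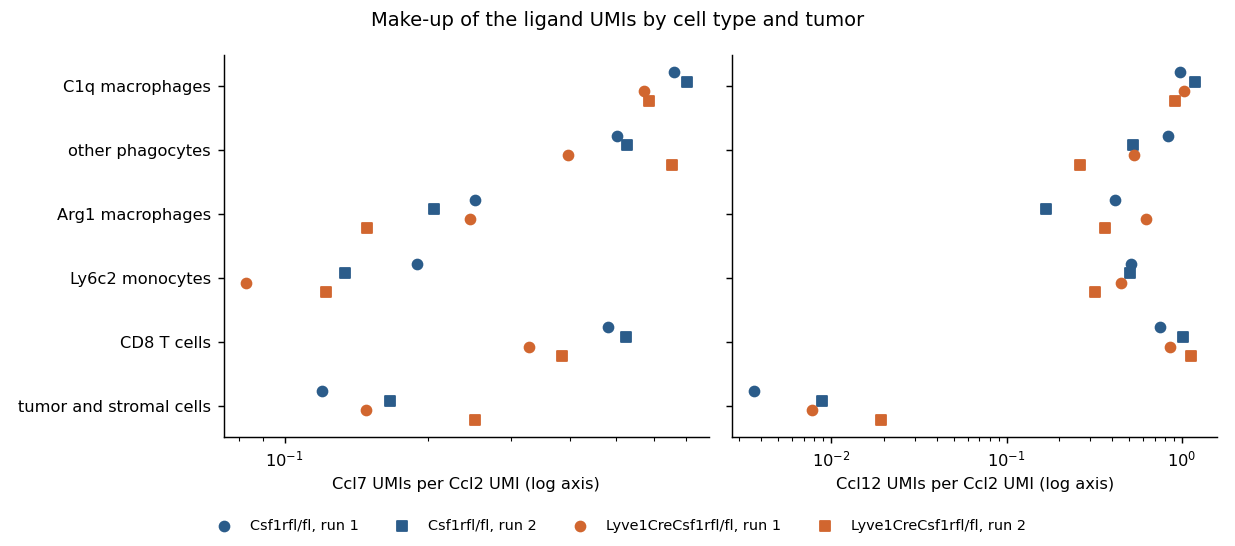
Each panel plots, on a log axis, the number of UMIs of a ligand per UMI of Ccl2 in 6 cell types, with 1 point per tumor (colors by genotype, marker shape by run). The Ccl12 ratio is 0.916 to 1.19 in C1q macrophages, 0.318 to 0.509 in Ly6c2 monocytes and at most 0.0193 in tumor and stromal cells.

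Ccl8 was the rarest and the most concentrated ligand. All kept cells together held 3652 of its UMIs, in 639 cells, and 30 cells held 50% of them. In C1q macrophages it measured 2.81 (run 1) and 1.71 (run 2) UMIs per 10000 in Csf1rfl/fl tumors, and 0.408 and 2.02 in Lyve1CreCsf1rfl/fl tumors, where 9 and 10 cells held all of it. The genotypes overlapped. In the other 15 types it was at most 0.145, except for 1.72 in Arg1 macrophages and 0.376 in other phagocytes of the Csf1rfl/fl tumor of run 1. The value in Arg1 macrophages rested on 1 cell with 61 of the 64 UMIs, and when only cells with hashtags at least 3 times apart were used, this class held 0.143% of the tumor's Ccl8 UMIs in place of 2.9%. C1q macrophages held 45.4%, 54.4%, 15.9% and 39.3% of the Ccl8 UMIs of the 4 tumors. By contrast 50% of the Ccl2 UMIs lay in 492 of 5797 cells and 50% of the Ccr2 UMIs in 1924 of 9415 cells.

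C1q macrophages were not uniform for these genes. Those with a UMI of Mrc1, which encodes the mannose receptor of tissue-type macrophages, had 6.15 and 2.89 Ccl8 UMIs per 10000 in the Csf1rfl/fl tumors and 1.4 and 5.62 in the Lyve1CreCsf1rfl/fl tumors, against 1.26, 0.397, 0.0566 and 0.358 in those without. Ccl7 was likewise higher with Mrc1 in all 4 tumors, at 19.2, 10.9, 8.27 and 11.2 against 7.33, 3.97, 4.29 and 2.77. Ccl12 was higher with Mrc1 in only 3 of them, since in the Lyve1CreCsf1rfl/fl tumor of run 1 it measured 8.71 with and 9.9 without. Ccr2 showed no common direction, with 1.26, 3.63, 2.48 and 2.13 against 1.61, 3.3, 2 and 2.46. Cells with an Mrc1 UMI were somewhat deeper in 3 of the tumors, at medians of 5142 to 7291.5 UMIs against 4407 to 5123. Folr2, which encodes a folate receptor of resident macrophages, split Ccl8 in the same direction, with 11.4 and 7.73 against 1.95 and 0.668 in the Csf1rfl/fl tumors. Of 196 and 112 C1q macrophages of the Lyve1CreCsf1rfl/fl tumors, only 2 and 4 had a Folr2 UMI. In the Csf1rfl/fl tumors 43 of 571 and 38 of 401 had one.

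**Figure D3:**
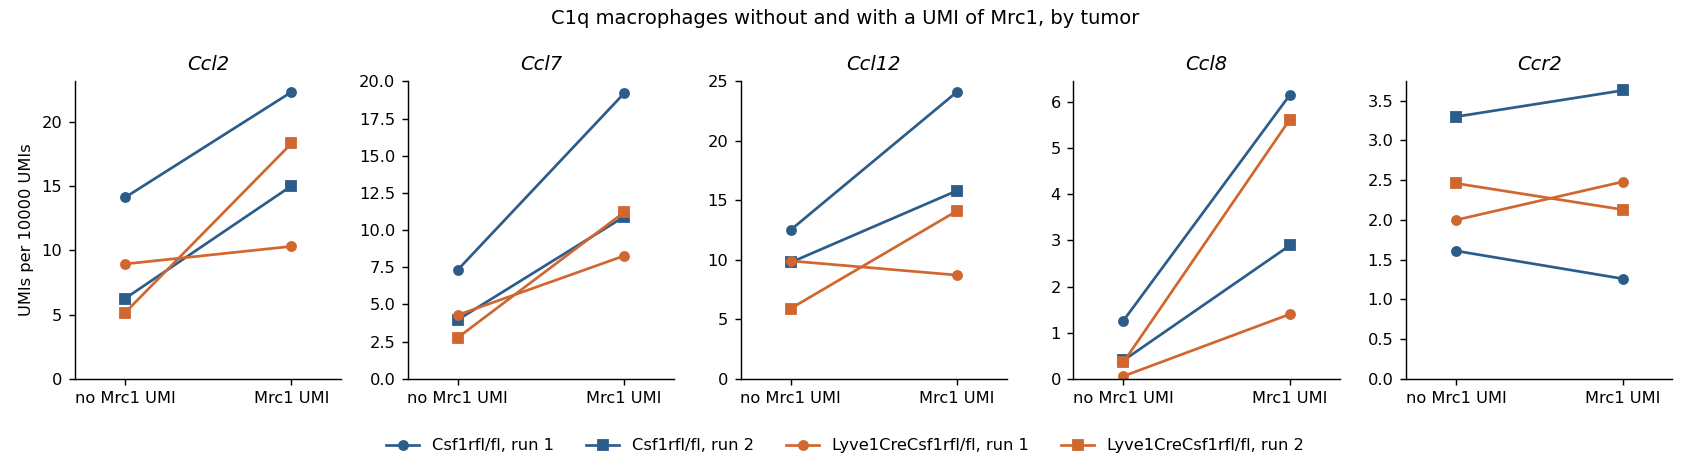
Each line joins the level of a gene, in UMIs per 10000 UMIs, in C1q macrophages without and with a UMI of Mrc1 within 1 tumor; color gives the genotype and marker shape the run. All 4 lines rise for Ccl2, Ccl7 and Ccl8, 3 of 4 rise for Ccl12, and those of Ccr2 go both ways.

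Ligands also shared cells. Among C1q macrophages thinned to 1500 UMIs, a Ccl2 UMI was found in 82.9%, 68.7%, 66% and 84% of cells with a Ccl7 UMI in the 4 tumors, against 43.8%, 31.2%, 29.9% and 38.8% of cells without one. Whether such a cell had a Ccr2 UMI made less difference, with Ccl2 in 66%, 43.9%, 44.7% and 53.3% against 60.1%, 43.5%, 37.9% and 47.5%. In Ly6c2 monocytes of the Csf1rfl/fl tumors, Ccl2 was found in 85.9% and 75.6% of cells with Ccl7 against 34.4% and 28.8% without.

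Ccr2 was spread over many more cells and lineages. In Ly6c2 monocytes, gated on Ly6c2 and Plac8, it measured 3.16 (run 1) and 6.3 (run 2) UMIs per 10000 in Csf1rfl/fl tumors, against 3.84 and 5.77 in Lyve1CreCsf1rfl/fl tumors. NK cells were at the same level, with 3.36 and 5.93 against 3.85 and 5.97. Arg1 macrophages had 2.98, 3.37, 3.59 and 5.69, regulatory T cells 2.08, 3.1, 2.19 and 2.53, and C1q macrophages 1.5, 3.48, 2.12 and 2.35. Neighbors in this order overlapped, down to neutrophils at 0.177 to 0.295, and only tumor and stromal cells lay apart, at 0.0162 to 0.0384. Monocytes had a Ccr2 UMI in 58.7% (exact 95% interval 55.4% to 61.8%) and 76.7% (73.8% to 79.5%) of cells in the Csf1rfl/fl tumors and in 61.5% (57.4% to 65.5%) and 75.7% (71.5% to 79.6%) in the Lyve1CreCsf1rfl/fl tumors, against 2.12% to 4.5% of neutrophils, at a median of 1990 UMIs per neutrophil and 4670.5 per monocyte. Thinned to 1500 UMIs, which 436 to 1290 neutrophils and 446 to 932 monocytes per tumor reached, the shares in monocytes were 30.8%, 50.4%, 35% and 47.8% and those in neutrophils 1.83% to 3.21%. Ccr2 was higher in run 2 than in run 1 within both genotypes in 11 of 16 types, among them monocytes and NK cells.

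**Figure D4:**
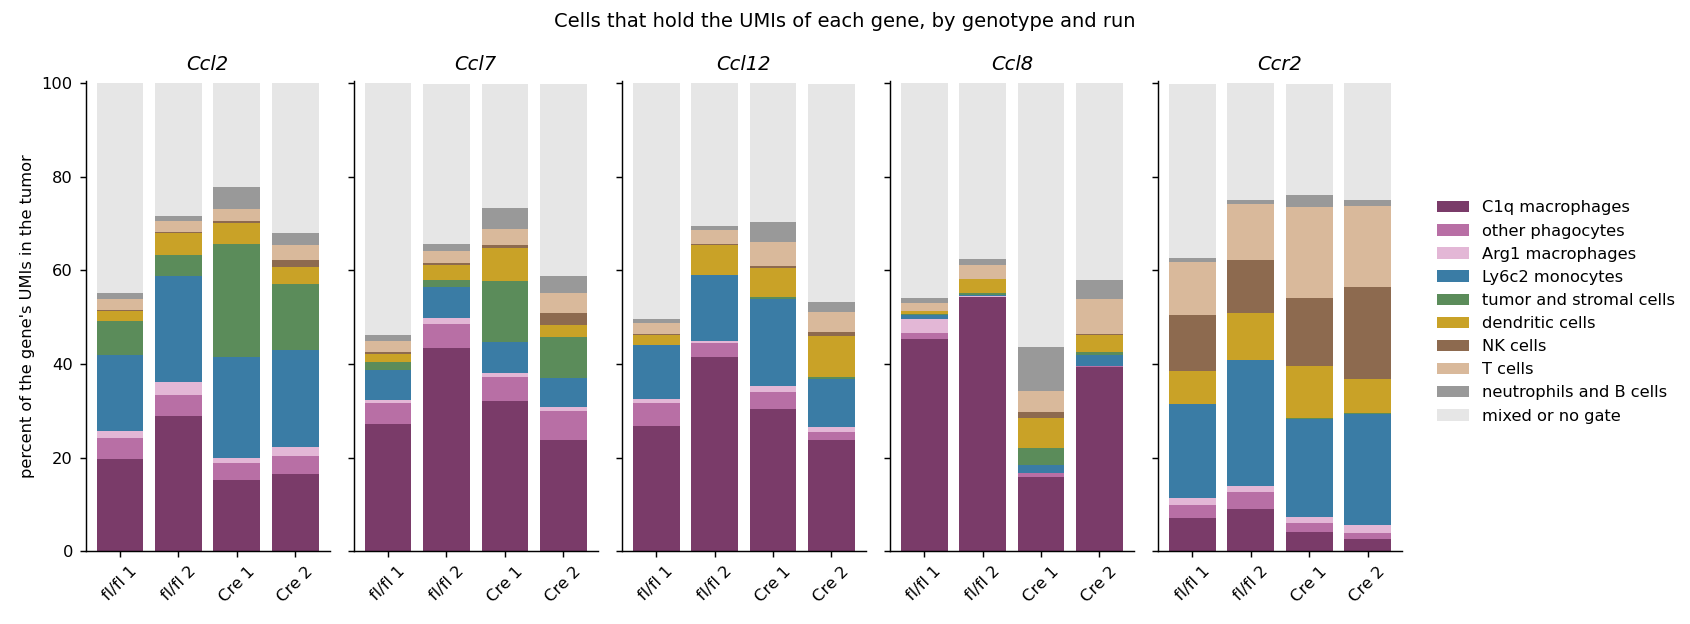
Stacked bars give, for each gene and tumor, the percent of its UMIs held by each group of cells (fl/fl, Csf1rfl/fl; Cre, Lyve1CreCsf1rfl/fl; the number is the run). C1q macrophages hold 15.3% to 28.9% of Ccl2 UMIs and 2.69% to 8.96% of Ccr2 UMIs, and cells of mixed or no gate hold 22.2% to 56.5% of the UMIs of the ligands.

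Ccr2 UMIs thus came from T and NK cells in a larger part than Ccl2 and Ccl12 UMIs did. The 4 phagocyte classes held 41.5% to 59% of Ccl2 UMIs and 36.9% to 58.9% of Ccl12 UMIs over the tumors, and T and NK cells held 2.69% to 4.53% and 2.71% to 5.6%. Ccr2 UMIs came from the phagocyte classes for 28.4% to 40.8% and from T and NK cells for 23.3% to 36.9%. Cells with mixed or no gate held 44.9% of the Ccl2 UMIs and 53.8% of the Ccl7 UMIs of the Csf1rfl/fl tumor of run 1, and their types are not known.

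Across 64 profiles (16 types in 4 tumors) and 12061 genes, Ccl2 was most like Ccl7, with a Pearson correlation of 0.911 between log2 levels, followed by Mmp14 (0.874), Itgb5 (0.866), Plau (0.865) and Myof (0.863). Ccl7 was closest to Ccl2, Itgb5, Nr1h3, Mertk and Pf4 (0.845 to 0.911). Ccl12 was closest to Ms4a7 (0.91), C3ar1, Adgre1, Clec4a2 and Cd300e (at least 0.886), all genes of mononuclear phagocytes. Ccl8 was closest to Folr2 (0.771), C1qb, Dppa3, C1qc and Itga9 (at least 0.718). Among the genes most like Ccr2 were Fermt3 (0.867), Pycard, Fam49b and Tln1 (at least 0.854), and its correlation with Ccl2 was 0.135. Profiles of a tumor share their library, so these values are descriptions.

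The genotypes were compared within each type on UMIs summed per tumor, which asks whether cells of a class differ in ligand or receptor RNA when Lyve1Cre is present. In the edgeR quasi-likelihood fit without a term for the run, no member passed an adjusted p of 0.05 in any of the 16 types. Few genes of any kind did. None was called in C1q macrophages or Ly6c2 monocytes (0% of genes tested, with 272 and 122 genes at an unadjusted p under 0.05), none in MHC class II-high DC, mature DC, pDC, neutrophils, NK cells or the T cell types, and the others gave 0.0538% in Arg1 macrophages, 0.0170% in other phagocytes, 0.0158% in conventional type 1 DC (cDC1) and 0.0103% in tumor and stromal cells. DESeq2 called 3 members in CD8 T cells, where it called 0.0579% of genes, and none in the other 15 types. Across genes, deviations of same-run tumors correlated at 0.200 (Arg1 macrophages) to 0.681 (Ly6c2 monocytes). The ligands did not always move with the run. Ccl2 was lower in run 2 within both genotypes in 8 of 16 types and higher in 1. These counts were 7 and 2 for Ccl7, 2 and 2 for Ccl8, and 7 and 4 for Ccl12. A fit with the run as a block called 14 of 60 member-by-type differences, against 0.226% of all gene tests over the types. Each rested on 2 tumors per genotype and 1 residual degree of freedom, and 13 were lower in Lyve1CreCsf1rfl/fl tumors.

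In Ly6c2 monocytes Ccl2, Ccl7 and Ccl12 were lower in the Lyve1CreCsf1rfl/fl tumor of both runs. Without the block the log2 fold changes were -0.98 ± 0.38 (SE) for Ccl2, -1.80 ± 0.43 for Ccl7 and -1.33 ± 0.43 for Ccl12, each at an adjusted p of 1 in edgeR. With the run as a block they were -0.91 ± 0.10, -1.64 ± 0.23 and -1.33 ± 0.10, with edgeR adjusted p of 5.36e-05, 0.00196 and 5.13e-07, where 0.190% of the 9496 genes tested were called. Within runs 1 and 2 the changes were -1.13 and -0.68 for Ccl2, -2.34 and -0.82 for Ccl7, and -1.32 and -1.35 for Ccl12. Without the Csf1rfl/fl tumor of run 1 they were -0.28, -0.74 and -0.62, with an adjusted p of 0.999 each (edgeR without the block, the lone tumor assumed to vary like the others), a fit that sets tumors of different runs against each other. Ccr2 in the same cells differed by 0.03 ± 0.30, or 0.07 ± 0.10 with the block (edgeR adjusted p of 1 in both). Csf1r measured 2.65 and 2.54 against 1.64 and 1.45 UMIs per 10000 in these monocytes. The summed level of 4 C1q macrophage markers, none of them at 0, was 1.39 and 0.811 in the monocytes of the Csf1rfl/fl tumors and 0.912 and 0.639 in those of the Lyve1CreCsf1rfl/fl tumors, lower by genotype in both runs, and its part in the ligand differences was not tested.

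C1q macrophages showed smaller differences in the same direction. The log2 fold changes were -0.54 ± 0.29 for Ccl2, -0.77 ± 0.27 for Ccl7 and -0.65 ± 0.26 for Ccl12, and within runs 1 and 2 they were -0.81 and -0.17, -1.02 and -0.44, and -0.72 and -0.56. With the run as a block no member was called, where 0.104% of genes were, and Ccl12 came nearest at -0.64 ± 0.09 with an edgeR adjusted p of 0.0544. Ccl8 went apart between the runs, at -2.74 in run 1 and 0.29 in run 2. Without the Csf1rfl/fl tumor of run 1 the changes were -0.13 for Ccl2, -0.41 for Ccl7, -0.50 for Ccl8 and -0.42 for Ccl12. Markers of the class and of monocytes differed between the genotypes too. The summed level of 7 Ly6c2 monocyte markers was 46.5 and 44.1 in the Csf1rfl/fl tumors and 61.8 and 59.5 in the Lyve1CreCsf1rfl/fl tumors, and that of 4 C1q markers was 73.9 and 53.6 against 53.3 and 48.5. No marker of either list was at 0, and their part in the ligand differences was not tested. Whether C1q macrophages and monocytes differed in their genotype effect was not tested.

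**Figure D5:**
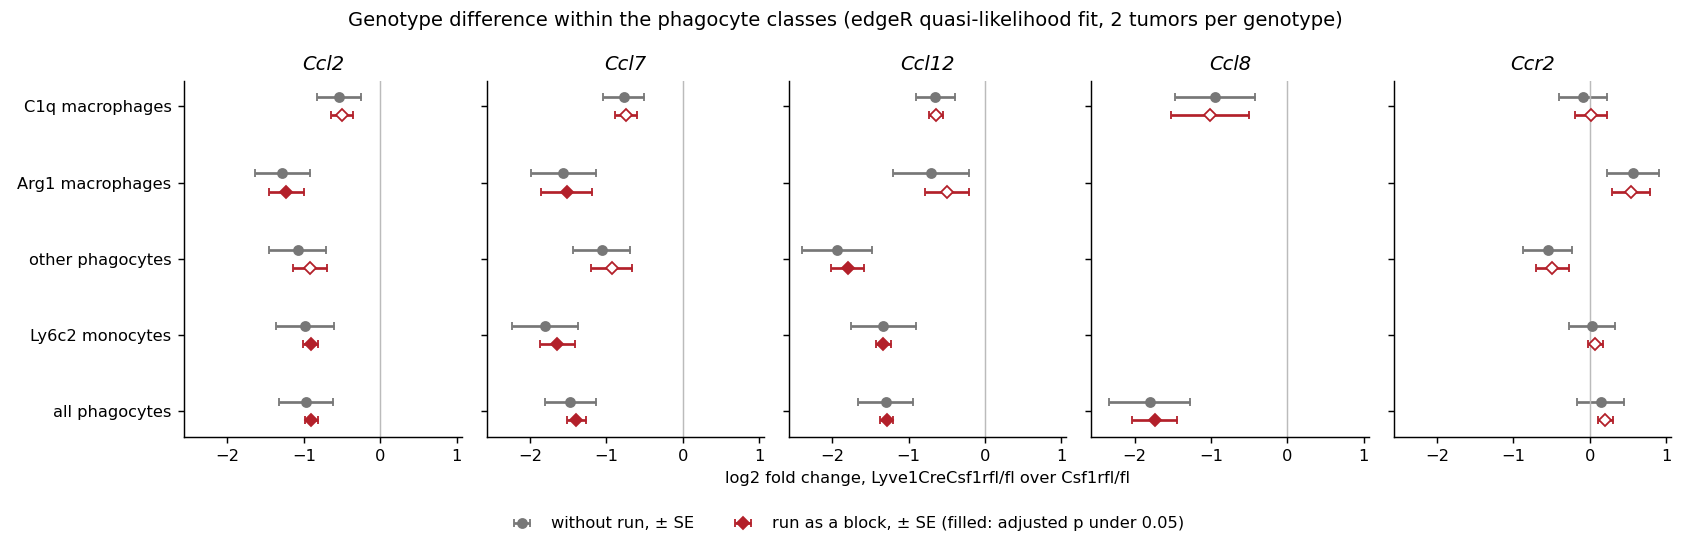
Each panel plots the log2 fold change of 1 gene (Lyve1CreCsf1rfl/fl over Csf1rfl/fl, 2 tumors each) in the phagocyte classes and in their sum, with bars of 1 SE; gray circles are fits without the run and red diamonds fits with the run as a block, filled where the edgeR adjusted p is under 0.05. Ccl2, Ccl7 and Ccl12 lie left of 0 throughout, and Ccr2 lies between -0.55 and 0.56. A gene with under 40 UMIs in a Csf1rfl/fl tumor of a class is not drawn.

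Arg1 macrophages had 218 cells, and the smallest tumor 35. With the block, Ccl2 was lower at -1.23 ± 0.23 and Ccl7 at -1.52 ± 0.34 (edgeR adjusted p of 3.09e-05 and 0.00211), where 0.457% of genes were called, against -1.28 ± 0.36 and -1.56 ± 0.43 without it (0.795 each). These unblocked values were -0.84 and -0.93 without the Csf1rfl/fl tumor of run 1. Summed C1q markers in these cells were 3.95 and 1.93 against 2.09 and 1.88 UMIs per 10000. The sums of 7 neutrophil markers were 9.7 and 6.98 against 19.4 and 6.75. Those of 7 Ly6c2 monocyte markers were 68.8 and 67.3 against 71.9 and 81. The Arg1 gate took precedence over the Ly6c2 gate, so cells that passed both could fall in this class. In other phagocytes Ccl12 was lower at -1.80 ± 0.22 with the block (edgeR adjusted p of 3.17e-05, 0.153% of genes called) and at -1.94 ± 0.46 without it (0.185). Few cells weighed on these values. In the Lyve1CreCsf1rfl/fl tumor of run 2, 8 cells held all 37 Ccl12 UMIs of the class, and 1 of them held 25. In the Csf1rfl/fl tumor of run 1, 1 cell held 270 of 1090. The Ccl12 changes within runs 1 and 2 were -2.18 and -1.23, and the unblocked value without the Csf1rfl/fl tumor of run 1 was -0.47. Ccl2 and Ccl7 in these cells were at -0.92 ± 0.22 and -0.93 ± 0.27 with the block (edgeR adjusted p of 0.0905 and 0.374), and at -0.13 and -0.17 in the unblocked fit without that tumor. In other phagocytes the summed C1q markers were 4.3 and 2.83 against 4.13 and 1.47, and the neutrophil markers 9.13 and 8.61 against 20.4 and 11.9, higher in both Lyve1CreCsf1rfl/fl tumors. No marker of these lists was at 0, and their part in the ligand differences of both classes was not tested. Ccl12 in Arg1 macrophages turned from -0.71 to 0.69 without that tumor.

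Over the sum of the 4 phagocyte classes, which also carries changes in their make-up, the log2 fold changes were -0.97 ± 0.35 for Ccl2, -1.47 ± 0.33 for Ccl7, -1.80 ± 0.53 for Ccl8 and -1.30 ± 0.36 for Ccl12 without the block, with an edgeR adjusted p of 1 each and 0% of genes called (283 at an unadjusted p under 0.05). DESeq2 called Ccl7 of the members, among 0.0375% of genes. With the run as a block they were -0.90 ± 0.09, -1.39 ± 0.12, -1.74 ± 0.30 and -1.29 ± 0.08, and all 4 ligands were called (edgeR adjusted p of 3.74e-08, 2.19e-09, 0.00068 and 2.45e-12) among 1.50% of genes. Ccr2 was not, at 0.20 ± 0.10 (0.542). Within runs 1 and 2 the changes were -1.17 and -0.63 for Ccl2 and -1.78 and -0.98 for Ccl7. They were -3.42 and -0.44 for Ccl8 and -1.34 and -1.23 for Ccl12, so Ccl8 differed most between the runs. Without the Csf1rfl/fl tumor of run 1 the unblocked changes were -0.36, -0.86, -1.08 and -0.78, and of these Ccl8 alone was called, at an edgeR adjusted p of 0.00625, among 0.474% of genes.

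Calls with the block were also made in cells that held little ligand. In CD8 T cells Ccl2 measured 0.794 and 0.422 against 0.175 and 0.106 UMIs per 10000, and its log2 fold change with the block was -2.08 ± 0.16. Ccl7 was at -2.59 ± 0.23 and Ccl12 at -1.90 ± 0.16 (edgeR adjusted p of 0.0104, 0.0109 and 0.0109, 0.0772% of genes called). Without the Csf1rfl/fl tumor of run 1 the unblocked changes were -1.47, -2.06 and -1.55. The summed level of 4 C1q macrophage markers in the same CD8 T cells was 0.625 and 0.414 against 0.188 and 0.201, lower by genotype in both runs as the ligands were, and none of these markers was at 0. In MHC class II-high DC, Ccl2 measured 1.5 and 1.14 against 0.631 and 0.42 UMIs per 10000, and Ccl12 measured 1.15 and 1.41 against 0.591 and 0.793. Ccl2 changed by -1.34 ± 0.15 and Ccl12 by -0.91 ± 0.14 with the block (edgeR adjusted p of 3.22e-09 and 3.32e-05, 0.227% of genes called). The unblocked changes were -0.99 and -0.98 without the Csf1rfl/fl tumor of run 1. Under a stricter gate both were lower, Ccl12 at 0.58, 0.527, 0.423 and 0.23 in the 4 tumors. Ccl2 then measured 0.516, 0.423, 0.348 and 0.219, against 0.678, 0.436, 0.173 and 0.0772 in CD8 T cells under the same setting, lower in the DC of the Csf1rfl/fl tumors and higher in those of the Lyve1CreCsf1rfl/fl tumors. Neutrophils gave a call for Ccl7 (-1.76 ± 0.24, edgeR adjusted p of 0.00222, 0.0262% of genes called) at levels of 0.077 to 0.627, and without the Csf1rfl/fl tumor of run 1 this change was -0.62 (unblocked). Summed C1q markers were 1.19 and 0.911 against 0.848 and 0.922 in MHC class II-high DC, and 0.882 and 0.519 against 0.615 and 0.593 in neutrophils. In these DC and in neutrophils they were lower by genotype in run 1 only. The MHC class II gate took precedence over the Ly6c2 gate, and 7 Ly6c2 monocyte markers in these DC summed to 58.2 and 53.7 against 57.3 and 61.1. The part of RNA from phagocytes in these values was not tested. In cDC1 and regulatory T cells, with 0.836% and 0.774% of genes called, the single member called with the block (Ccl12 higher and Ccl2 lower) had under 40 UMIs in a Csf1rfl/fl tumor. Ccl12 in cDC1 went opposite ways in runs 1 and 2, at log2 ratios of levels of -1.05 and 2.34, and 1 cell held 50 of the 53 UMIs of the Lyve1CreCsf1rfl/fl tumor of run 2. NK cells had no gene called with the block (0%), and their Ccr2 differed by 0.10 ± 0.13.

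Of 52 further genes of the axis, listed by role, none passed the threshold without the block in any type. With it, Ccl5, a chemokine that attracts T cells and monocytes, was higher in Lyve1CreCsf1rfl/fl tumors in Ly6c2 monocytes (0.64 ± 0.11, edgeR adjusted p of 0.0194), in MHC class II-high DC (0.84 ± 0.12, 5.26e-06), and lower in regulatory T cells (-0.67 ± 0.09, 4.36e-11) and CD4 T cells (edgeR adjusted p of 0.00775, 0.226% of genes called). Its call in Arg1 macrophages (1.47 ± 0.26, edgeR adjusted p of 1.01e-05) rested on 1 tumor, with changes of 2.93 within run 1 and -0.21 within run 2. Csf1r was lower in monocytes (-0.75 ± 0.11, edgeR adjusted p of 0.00295), and Ccl6 in C1q macrophages (-1.17 ± 0.13, 0.023). Of 42 and 41 axis genes tested in C1q macrophages and monocytes, 1 (lower) and 2 (1 higher and 1 lower) were called with the block, against 0.104% and 0.190% of all genes, and the median log2 fold change without the block was 0.01 and -0.03, against 0.00 over all genes. Of other receptors of the ligands, Ccr1 was highest in neutrophils (8.99 to 16.4 UMIs per 10000) and Ccr8, the receptor of mouse CCL8, in regulatory T cells (0.182 to 0.298).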

How the data were processed

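Viable CD45+ cells of 2 Csf1rfl/fl and 2 Lyve1CreCsf1rfl/fl EO771 tumors were sequenced in 2 Chromium 3' runs. The authors aligned reads to mm10 with Cell Ranger 6.0.1 and deposited UMI counts per gene and cell and hashtag counts, not normalized, and a table of SCTransform-corrected values, a score that was used only to learn which cells they had kept (singlets under a mitochondrial limit, without clusters of 1 tumor). Here the hashtag with the higher centered log ratio, read through the deposited hashtag key, decided which tumor a cell came from. Types were gated on marker counts; cells of several lineages were left out as possible doublets, and no doublet caller was run. Levels are UMIs per 10000 summed UMIs. Summed counts were tested with edgeR 4.0.16 (filterByExpr, TMM, quasi-likelihood, Benjamini-Hochberg, 2 tumors per genotype); alternatives are in the closing section. The key places 1 tumor of each genotype in each run, and deviations of same-run tumors correlated at 0.200 to 0.681 across genes in the types. Members, lists and markers were chosen with earlier results of these data known. Named genes are the members, the listed axis genes past the threshold and the 5 genes most like each member by correlation of log2(UMIs per 10000 + 0.01), among genes with 200 UMIs or more. Some genes that the rule names are not reported here. The minimum of 40 UMIs was chosen after values were seen. Nothing states whether the tumors of a genotype came from separate cohorts, so p-values hold for these tumors only. The quasi-likelihood fit also shares variance between genes. A p-value thus does not rest on a gene's own spread between tumors alone, least of all with the run as a block. The same holds for each SE, which was the absolute log2 fold change over the square root of the test's F. Simulated counts were used to test the scripts.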

Additional observations from a re-analysis of the deposited data

Results flagged for a closer look

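Some genotype differences pointed opposite ways in different cell types in both runs, and none of these differences between types was tested. Ccl7 in tumor and stromal cells had log2 ratios of Lyve1CreCsf1rfl/fl to Csf1rfl/fl of 0.21 in run 1 and 0.38 in run 2, while it was lower in both runs in C1q macrophages, Ly6c2 monocytes and MHC class II-high DC, among 5 types with at least 20 UMIs in every tumor. Ccr2 in Arg1 macrophages had ratios of 0.27 and 0.76, and in NK cells of 0.20 and 0.01. It was lower in both runs in mature DC and other T cells, among 13 such types. Without the block its edgeR log2 fold changes were 0.56 ± 0.34 (SE) in Arg1 macrophages and 0.09 ± 0.30 in NK cells. They were -0.41 ± 0.26 in mature DC and -0.07 ± 0.24 in other T cells. Those of NK cells and other T cells thus lay within 1 SE of 0.

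The barcodes that the authors did not keep include both hashtag doublets and cells over their mitochondrial limit. They also include lymphocyte clusters that the paper calls specific to its second Lyve1CreCsf1rfl/fl tumor, here that of run 2. These left-out barcodes held members above the level of all kept cells of the Csf1rfl/fl tumor of the same run. In run 2 this was so for Ccl2 (2.84 UMIs per 10000 against 2.54), Ccl7 (1.51 against 1.19), Ccl8 (0.363 against 0.213) and Ccl12 (2.35 against 2.1). In run 1 it was so for Ccr2, by a small margin (1.34 against 1.33). Those barcodes come from both genotypes. Set against all kept cells of their run, Ccr2 was below the kept level in both runs (1.34 against 1.35, and 1.67 against 2.4), while Ccl2 was above it (4.18 against 3.88, and 2.84 against 2.05), as was Ccl8 (0.372 against 0.265, and 0.363 against 0.176), and Ccl7 and Ccl12 likewise.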

How the results depend on the processing

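No member was called in any type without the block, under the stricter gate, with mixed cells kept or with hashtags at least 3 times apart. DESeq2 gave 3 calls over the 16 types (0.00974% of all gene tests called) and no filter gave 11 (0.114%). The run as a replicate block gave 14 (0.226%), and leaving out 1 tumor gave 1 to 22 (0.110% to 0.209%), with the most without the Csf1rfl/fl tumor of run 2 and 13 without the Lyve1CreCsf1rfl/fl tumor of run 1. Over all phagocytes DESeq2 gave 1 call, the replicate block 4 and leaving out 1 tumor 0 to 4 (0.166% to 0.958%). Of the 42 log2 fold changes followed, the block put 16 past the threshold, kept 25 in direction and call, and turned Ccr2 in C1q macrophages to 0.02. The stricter gate turned Ccl12 in Arg1 macrophages to 0.61 and Ccl7 in MHC class II-high DC to 0.34, and keeping mixed cells turned Ccr2 to -0.03 in Ly6c2 monocytes and -0.37 in neutrophils.

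Leaving out 1 tumor turned these directions, mostly of Ccr2 near 0. Ccr2 ranged from -0.55 to 0.54 in C1q macrophages, -0.32 to 0.49 in Ly6c2 monocytes, -0.28 to 0.26 in MHC class II-high DC, -0.98 to 0.40 in cDC1, -0.48 to 0.43 in neutrophils, -0.17 to 0.42 in NK cells, -0.76 to 0.04 in CD8 T cells, -0.78 to 0.02 in CD4 T cells, -0.30 to 0.09 in regulatory T cells, -0.23 to 0.10 in other T cells and -0.24 to 0.66 in all phagocytes. Ccl12 ranged from -1.43 to 0.69 in Arg1 macrophages, Ccl2 from -1.16 to 0.88 in neutrophils and -1.04 to 0.64 in tumor and stromal cells, and Ccl7 from -0.14 to 0.72 in tumor and stromal cells. The cause was not tested.

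Thinning cells to 1500 UMIs, with shallower cells left out, lowered the mean share of C1q macrophages of the Csf1rfl/fl tumors with a UMI from 70.2% to 52.4% for Ccl2, 55.5% to 38.9% for Ccl7, 11.7% to 7.46% for Ccl8 and 63.5% to 46.9% for Ccl12, and that of Ly6c2 monocytes with Ccr2 from 67.7% to 40.6%. With 2 tumors per genotype and low counts outside phagocytes, smaller differences could not be detected at this depth.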
